A study of Mus musculus with 12 samples.

Results

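The genes described here encode the sarcomere, the contractile unit of heart muscle, and the Z-disc that anchors it. They were taken as 35 named genes covering the thick and thin filaments, titin, the M-band, the Z-disc and the atrial or skeletal forms of some of these proteins. All 35 were found among the 54751 features of the count table, each on 1 row. RNA came from hearts of C57BL/6N mice aged 52 weeks, all of them homozygous for a Rexo2 gene flanked by loxP sites. The 3 control libraries carry this floxed genotype alone. The 3 libraries labelled knockout carry in addition 1 copy of an allele named Ckmm, after the gene of muscle creatine kinase, a promoter with which Cre is often expressed in striated muscle. The controls carry no Ckmm allele, so the allele itself and a loss of Rexo2 cannot be told apart, and any deletion would be limited to cells in which that promoter is active. Libraries are called by group and the number in the table, such as control 490, and no label says whether each is from a separate animal. The p-values therefore reflect the spread between these libraries alone, which may be technical.

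In the sarcomere, myosin thick filaments pull on actin thin filaments, and troponin and tropomyosin make this pull depend on calcium. Titin spans from the Z-disc to the M-band as a molecular spring. Heart chambers and skeletal muscles use different genes for the same position, such as Myl2 in ventricle and Myl7 in atrium for the regulatory light chain of myosin. Many genes of this kind are known targets of serum response factor, which binds the CArG box, and of the MEF2 factors. The motifs were therefore sought in the RefSeq promoter windows of GRCm38.p6, from 250 bases before to 50 after a start site. Of the 35 members, 29 had a window, 42 windows in all, and some genes had several that overlap. A CArG box lay in 9 of these 42 windows (21.4%), against 1.63% of all 32851 windows, and a MEF2 site in 6 (14.3%), against 3.19%. The M-CAT element CATTCC lay in 16 (38.1%, against 14.7%), TATAAA in 5 (11.9%, against 13.6%) and the E-box CANNTG in 34 (81.0%, against 72.3%). Both strands were searched, and a match describes the letters only. The CArG box was found in 7 members, Fhl1, Fhl2, Ldb3, Myl3, Myl7, Myom1 and Nebl, and the MEF2 site in 5, Fhl2, Mybpc3, Myoz2, Synpo2l and Ttn.

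**Figure D1:**
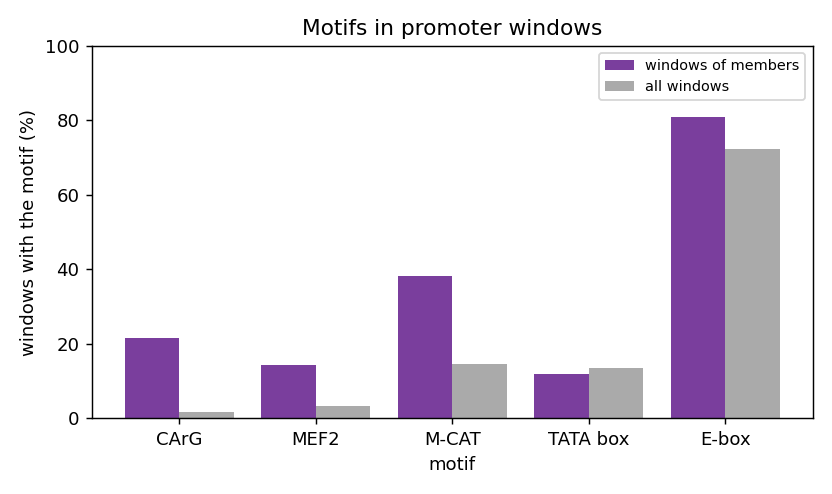
Share of RefSeq promoter windows (y axis, percent) that hold each of 5 motifs (x axis) on either strand, for the 42 windows of members (purple) and all 32851 windows (grey). The CArG box stands at 21.4% against 1.63%, while the TATA box stands at 11.9% against 13.6%.

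Shown first are stretches upstream of the start site of Myl3 and Myl7, because one transcript was abundant and the other nearly absent in these hearts although both promoters hold a CArG box. The next are the MEF2 sites of Mybpc3, Myoz2 and Synpo2l, which were lowest in the same pair of libraries, and of Ttn, which was highest in that pair. The pair, control 490 and knockout 492, was chosen after values were seen, and a link between site and level was not tested. Fhl2, also with a MEF2 site and highest in that pair, is not shown. Capitals mark the CArG box in the first lines and the MEF2 site in the others, and all are written 5′ to 3′ on the strand of the gene.
Myl3 at chr9:110763578-110763617 of GRCm38.p6, plus strand, CArG box from base -85: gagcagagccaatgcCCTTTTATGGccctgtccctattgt
Myl7 at chr11:5898819-5898858, minus strand, CArG box from base -61: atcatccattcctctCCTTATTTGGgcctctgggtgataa
Mybpc3 at chr2:91118039-91118078, plus strand, MEF2 site from base -90: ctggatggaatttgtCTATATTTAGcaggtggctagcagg
Myoz2 at chr3:123034996-123035035, minus strand, MEF2 site from base -33: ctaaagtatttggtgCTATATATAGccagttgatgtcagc
Synpo2l at chr14:20668439-20668478, minus strand, MEF2 site from base -109: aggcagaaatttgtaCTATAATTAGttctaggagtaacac
Ttn at chr2:76982689-76982728, minus strand, MEF2 site from base -166: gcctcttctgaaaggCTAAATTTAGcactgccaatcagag

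The 6 libraries held between 41979163 and 50764023 reads. Rexo2, the targeted gene, was measured at 330, 368 and 293 normalised counts for control 490, 498 and 502, against 274, 288 and 314 for knockout 492, 499 and 501. These ranges overlap. The count covers the whole gene and the labels used here name no deleted exon, so it does not check the labels. Control 490 stood apart on the first principal component of all tested features, at -30.1 against -5.63 to 16.7 for the other libraries (26.4% of the variance). On the second (22.5%) knockout 492 lay at -25.5 and knockout 501 at 25.9, with the others between -2.47 and 2.64. The third (18.2%) placed the controls between -13.7 and -11.3 and the knockout-labelled libraries between 3.91 and 18.0. Mitochondrial DNA took 69.4 to 70.0% of all counts in the controls and 71.5 to 71.9% in the knockout-labelled libraries. In bulk RNA, fewer cells of a type and less RNA per cell cannot be told apart.

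No sarcomere or Z-disc gene passed the test between the groups, and the intervals around most of them were narrow. Of the 35 members, 33 had a mean of at least 10 normalised counts and were tested, while Myl7 and Tnni1 lay below. limma, with Benjamini-Hochberg adjustment over 18250 features, called 0 of the 33 at an adjusted p under 0.05, against 4 features (0.0219%) in all. At an unadjusted limma p under 0.05, 1 member was higher, Myot, against 1.72% of all features, and 0 were lower, against 1.98%. These counts turned with the scaling. With libraries scaled to equal totals over all features, 0 members were higher, against 0.647% of all features, and 3 were lower, against 7.56%. With equal totals outside mitochondrial DNA 3 were higher, against 2.67%, and 0 lower, against 1.25%. limma without a trended prior had 0 members at an unadjusted p under 0.05, and its count over all features is given in the last section. edgeR on recovered reads called 0 members (0.0274% of all features), DESeq2 on recovered reads 0 (0.456%) and the test in the authors' deposited table called 0 of the 30 members with an adjusted p (0.437%). Each of these also had 1 member at an unadjusted p under 0.05, which was higher. The share of all features at that threshold is not given here, so these counts have no background beside them.

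The log2 fold changes, knockout minus control on the log2(value + 1) scale, had a median of 0.00097 over the 33 members and of 0.00056 over all tested features, and 17 members lay above 0 and 16 below. In 29 of the 33 the log2 fold change was smaller than 0.1 in size. The median standard error was 0.054, against 0.12 over all features, and in 31 of the 33 the 95% interval lay wholly between -0.5 and 0.5. The groups did not overlap in 2 members (6.06%), Tnnc1 and Cryab, against 9.51% of all features.

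**Figure D2:**
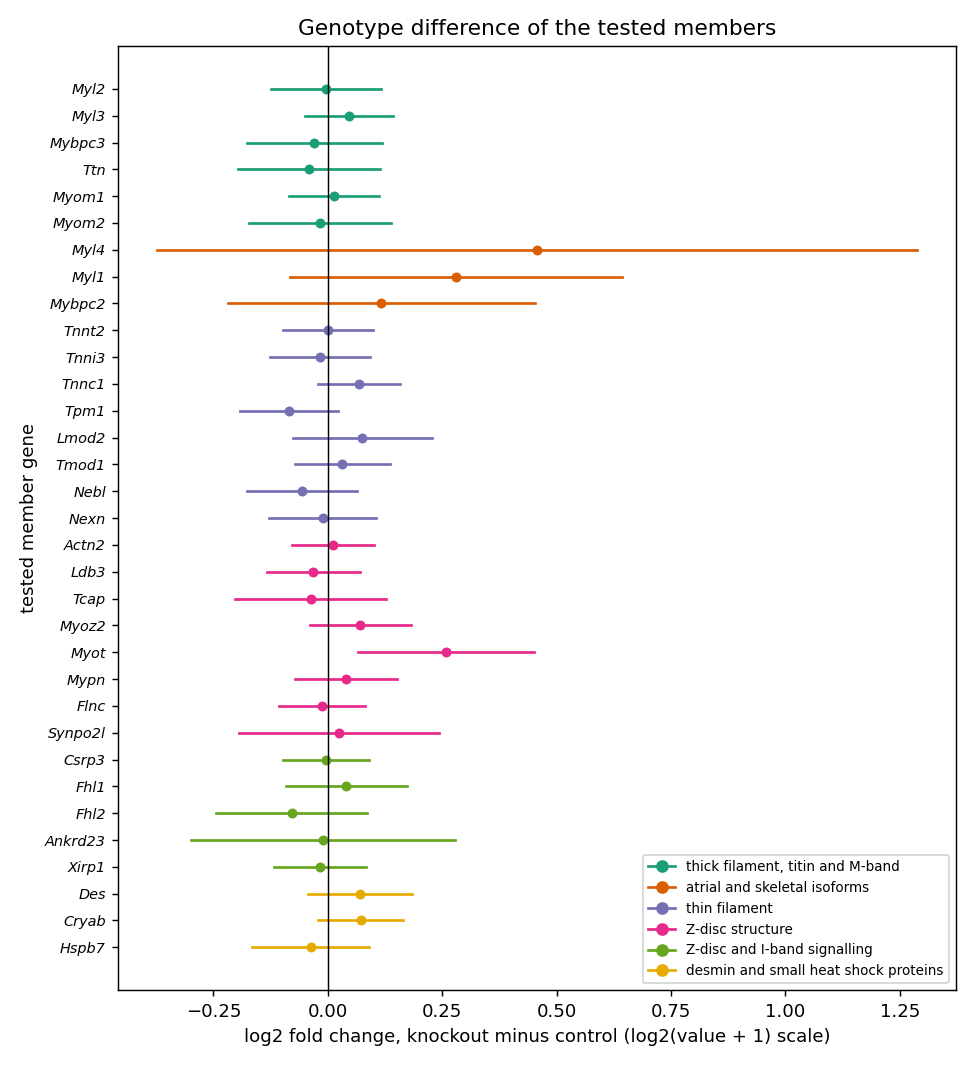
Log2 fold change, knockout minus control (x axis), of the 33 tested members (y axis), coloured by role; points are limma estimates and bars their 95% intervals, with 3 libraries per group. The estimates cluster at 0, Myot alone has an interval above it, and the atrial light chain Myl4, with about 10 counts, has the widest.

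Of the 6 genes of the thick filament, titin and the M-band, 2 estimates lay above 0 and 4 below, and none passed the test. Myl2, the regulatory light chain of the ventricle (chromosome 5, 122092724 to 122113473 in the RefSeq annotation of GRCm38.p6), held 25035, 24855 and 23131 normalised counts for control 490, 498 and 502, against 26408, 23159 and 23366 for knockout 492, 499 and 501. Knockout 492 was the highest and the other libraries interleaved, for a log2 fold change of -0.0035 with an interval from -0.12 to 0.12. Myl3, the essential light chain of the ventricle, held 26924, 26782 and 24976 across the controls, against 26950, 26807 and 27450 across the knockout-labelled hearts, a log2 fold change of 0.046 with an interval from -0.050 to 0.14. Control 502 was the single low value.

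Mybpc3 encodes cardiac myosin-binding protein C, which tunes the cross-bridges of the thick filament. It held 39245, 44974 and 45162 normalised counts for control 490, 498 and 502, against 37972, 44555 and 44293 for knockout 492, 499 and 501. Within each group 1 library stood well under the other 2, control 490 and knockout 492, while the group means of 43127 ± 3363 and 42273 ± 3727 (SD over n = 3 each) differed by less than either spread. On the log2 scale knockout minus control was -0.030 (SE 0.068).

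Titin was by far the most heavily counted member. Ttn (chromosome 2, 76703980 to 76982557) held 1399976, 1320528 and 1338333 counts across the controls, against 1347979, 1281527 and 1314483 across the knockout-labelled hearts. It took 9.91 ± 0.16% of all counts outside mitochondrial DNA in the controls against 9.82 ± 0.19% in the knockout-labelled libraries (SD over n = 3 each), and 78.0% and 77.5% of the counts of the 35 members. Its transcript is very long and counts scale with length, so this share does not compare its level with that of other genes. The log2 fold change was -0.041 with an interval from -0.20 to 0.11. The M-band proteins Myom1 and Myom2, which cross-link thick filaments at the centre of the sarcomere, had log2 fold changes of 0.014 and -0.017. Myom2 held 10300, 12044 and 10687 counts across the controls, against 9624, 11573 and 11483 across the knockout-labelled hearts, again with control 490 and knockout 492 lowest.

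Of the 8 thin filament genes 4 lay above 0 and 4 below. Tnnt2, cardiac troponin T, which ties troponin to tropomyosin, held 34265, 31478 and 32523 counts across the controls, against 32172, 32648 and 33466 across the knockout-labelled hearts, with a log2 fold change of 0.00097. The libraries of the groups interleaved. Tnni3, cardiac troponin I, the inhibitory subunit, held 16268, 15597 and 15316 counts across the controls, against 16700, 14924 and 15044 across the knockout-labelled hearts (log2 fold change -0.017).

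Tnnc1, the troponin C of heart and slow muscle and the calcium sensor of the thin filament, was 1 of the 2 members whose groups separated. It held 9469, 9674 and 9532 counts across the controls, against 9846, 10035 and 10185 across the knockout-labelled hearts. All 3 knockout-labelled values lay above all controls, but the log2 fold change was 0.068 with an interval from -0.021 to 0.16 (limma adjusted p = 1.00). It was -0.0019 with libraries scaled to equal totals over all features, and 0.096 with equal totals outside mitochondrial DNA (limma adjusted p = 1.00, unadjusted 0.0415).

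Tpm1, alpha-tropomyosin, had the lowest log2 fold change of all tested members, -0.085 with an interval from -0.19 to 0.023. Its 30913, 29284 and 29202 counts in control overlapped with 29982, 26924 and 27467 in knockout-labelled hearts. The pointed-end proteins Lmod2, which lengthens thin filaments, and Tmod1, which caps them, stood at 0.075 and 0.032. Nebl, the small cardiac relative of nebulin, stood at -0.056 and Nexn, an actin-binding protein of the Z-disc, at -0.011.

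The atrial light chains were nearly absent from these hearts. Myl7 was listed at 0 in 5 libraries and at 3.38 normalised counts, 3 reads, in knockout 501, where a count of 0 allows up to 3 reads per library. Myl4, the atrial essential light chain, held 9.83, 10.3 and 8.14 counts across the controls, against 8.59, 17.0 and 15.8 across the knockout-labelled hearts, which is between 8 and 18 reads a library. Its annotated span overlaps that of Cdc27 on the other strand, which had a mean of 603 counts, and the use of strand in counting is not stated in the labels, so these few reads may not all be of Myl4. Some other atrial markers were also at or near 0, with sarcolipin (Sln) at 0 in 5 libraries and 0.89 in control 490, and Bmp10 between 1.13 and 11.4. Of the 8 atrial markers listed besides members, 5 did not reach a mean of 10. The transcription factor Nr2f2, which endothelial cells also express, held between 214 and 281, Nr2f1 between 34.6 and 53.7 and Dkk3 between 30.1 and 58.7. Their log2 fold changes were -0.043, 0.30 and 0.21, and limma called 0 of them. The labels name the tissue as heart, and the protocol in them speaks of total hearts.

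The skeletal forms were low but measurable. Myl1, the essential light chain of fast skeletal muscle, held 156, 204 and 186 normalised counts for control 490, 498 and 502, against 164, 285 and 228 for knockout 492, 499 and 501. Knockout 499 and 501 lay above all controls, while knockout 492 lay among them. The log2 fold change was 0.28 with an interval from -0.082 to 0.64 (limma adjusted p = 1.00), and it was 0.095 without knockout 499 and 0.49 without knockout 492. Mybpc2, the fast skeletal myosin-binding protein C, held 109, 115 and 113 counts across the controls, against 101, 155 and 115 across the knockout-labelled hearts, with 1 high value in knockout 499. Its log2 fold change of 0.12 was -0.058 without that library. Tnni1, the slow skeletal and fetal troponin I, held 1, 5 and 1 reads in control and 0, 1 and 0 in knockout-labelled libraries, too few for a comparison.

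The fast skeletal muscle markers did not move as one across the libraries. The 13 measured of 14 listed summed to 163, 145 and 158 counts in control 490, 498 and 502 and to 127, 197 and 185 in knockout 492, 499 and 501. The myosin Myh4 was at 0 in all 6 libraries, and only Casq1 and Ryr1 reached a mean of 10. The sum was highest in knockout 499, where Casq1 and Ryr1 made up most of it, at 93.7 and 57.8. However, Casq1 was highest in knockout 501 and Ryr1 in control 498. The part of skeletal muscle RNA in the Myl1 and Mybpc2 values was not tested.

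Ratios within a library, which depend little on the scaling, also overlapped between the groups or rested on a few reads. The log2 ratio of Myl1 over Myl3 was -7.17 ± 0.22 in the controls against -6.94 ± 0.40 in the knockout-labelled hearts (SD over n = 3 each), higher by 0.23 (exact permutation test, 2-sided, p = 0.4, adjusted over 5 ratios 0.625). Myl4 over Myl3 was -11.3 ± 0.11 and -10.9 ± 0.50, higher by 0.41 (exact permutation p = 0.4, adjusted 0.625). Mybpc2 over Mybpc3 was -8.57 ± 0.081 and -8.42 ± 0.23, higher by 0.15 (exact permutation p = 0.5, adjusted 0.625). In Tnni1 over Tnni3 (exact permutation p = 0.2, adjusted 0.625) and Myl7 over Myl2 (exact permutation p = 0.7, adjusted 0.7) the numerator was at or near 0, so the size of the ratio depends on the pseudocount of 1 and is not given. Single libraries set much of these differences. Without knockout 499 they were 0.041 for Myl1 over Myl3, 0.23 for Myl4 over Myl3 and 0.012 for Mybpc2 over Mybpc3. Without knockout 492 they were 0.44, 0.69 and 0.21, and without control 490 Myl1 over Myl3 stood at 0.11. With 3 libraries against 3 such a test cannot go below 0.1.

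**Figure D3:**
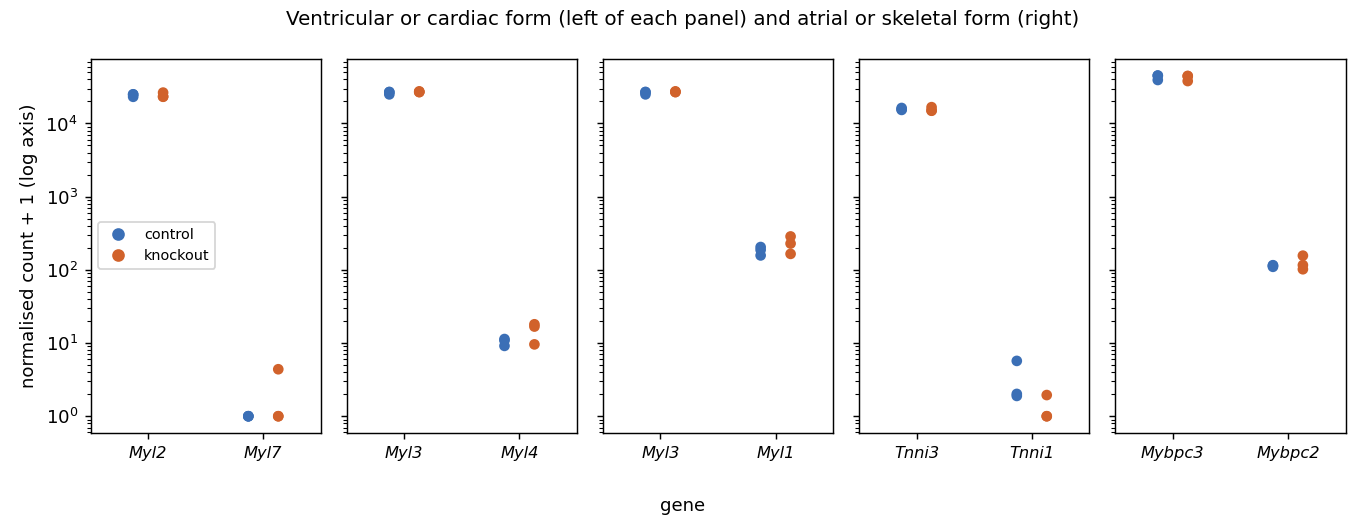
Normalised counts plus 1 (y axis, log scale) of the ventricular or cardiac form and of the atrial or skeletal form (x axis) in 5 pairs; each point is 1 library, blue control and orange knockout. In each pair the 2 genes are far apart and the 2 groups lie on top of each other or overlap.

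Among the 8 structural Z-disc genes, Myot gave the lowest p of any member. Myot encodes myotilin, which binds alpha-actinin and cross-links actin. It held 1074, 1235 and 1070 normalised counts for control 490, 498 and 502, against 1172, 1538 and 1350 for knockout 492, 499 and 501. Knockout 499 and 501 lay above every control, while knockout 492 lay under control 498, so the groups overlapped. The group means were 1127 ± 94.1 and 1353 ± 183 (SD over n = 3 each), a difference of 0.26 on the log2 scale (SE 0.089), an interval from 0.067 to 0.45, an unadjusted limma p of 0.0119 and an adjusted p of 1.00. The authors' deposited table gave 0.27 on the log2 scale, with its adjusted p at 0.719. The estimate was 0.16 without knockout 499 (limma adjusted p = 1.00, unadjusted 0.0837) and 0.36 without knockout 492 (limma adjusted p = 0.412, unadjusted 0.000722).

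Actn2, alpha-actinin, which cross-links the actin filaments of neighbouring sarcomeres, held 8428, 8756 and 8548 counts across the controls, against 8660, 8563 and 8704 across the knockout-labelled hearts. The highest library exceeded the lowest by 1.04 times, the smallest range of the 33 tested members, and the log2 fold change was 0.011. Flnc, filamin C, an actin cross-linker of the Z-disc, stood at -0.013, Mypn, myopalladin, which binds alpha-actinin, at 0.039, and Ldb3, the PDZ and LIM protein ZASP, at -0.031. Synpo2l, an actin-bundling Z-disc protein, stood at 0.024 and Myoz2, calsarcin, at 0.071.

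Tcap, telethonin, which caps the end of titin in the Z-disc, held 21225, 18144 and 17480 counts across the controls, against 19580, 16383 and 19402 across the knockout-labelled hearts. Control 490 was highest and knockout 499 lowest, and the log2 fold change was -0.038 with an interval from -0.20 to 0.13.

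The 5 genes of Z-disc and I-band signalling had 1 estimate above 0 and 4 below. Fhl2, a LIM-only protein of the titin I-band, held 16199, 14361 and 14628 counts across the controls, against 16518, 13386 and 13064 across the knockout-labelled hearts. The lowest 2 values were knockout-labelled, but the highest was also, in knockout 492, and the log2 fold change was -0.079 with an interval from -0.24 to 0.086. Csrp3, the muscle LIM protein, stood at -0.0036 with group means of 7843 ± 172 and 7824 ± 224 (SD over n = 3 each). Fhl1 stood at 0.041 and Xirp1, an actin-binding protein of the intercalated disc, at -0.017. Ankrd23, a titin-binding ankyrin repeat protein, held 349, 400 and 367 counts across the controls, against 291, 467 and 369 across the knockout-labelled hearts, so that its lowest and highest values were both knockout-labelled.

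Desmin and the small heat shock proteins protect and brace the Z-disc. Cryab, alpha-B crystallin, the chaperone of desmin and titin, held 11528, 11955 and 11309 counts across the controls, against 12083, 12018 and 12471 across the knockout-labelled hearts. All knockout-labelled values lay above the controls and the log2 fold change was 0.072 with an interval from -0.021 to 0.16 (limma adjusted p = 1.00). It was 0.0021 under equal totals over all features, and 0.10 under equal totals outside mitochondrial DNA (limma adjusted p = 1.00, unadjusted 0.0369). Cryab overlaps the annotated span of Hspb2, with a mean of 565 counts, whose reads may not be fully separated from it. Des, the muscle intermediate filament, held 18777, 19727 and 18912 counts across the controls, against 18666, 20132 and 21548 across the knockout-labelled hearts, a log2 fold change of 0.070. Hspb7, a cardiac heat shock protein that binds filamin C, held 23916, 23747 and 25207 counts across the controls, against 21317, 24625 and 25249 across the knockout-labelled hearts, with knockout 492 lowest, at -0.037.

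In 24 of the 33 the highest library exceeded the lowest by less than 1.2 times, and the widest ranges were in low genes, 2.09 times in Myl4, 1.82 in Myl1, 1.60 in Ankrd23 and 1.54 in Mybpc2. Knockout 499 held the highest value in 8 members and the lowest in 9. Knockout 501 held the highest in 10 and the lowest in 2.

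**Figure D4:**
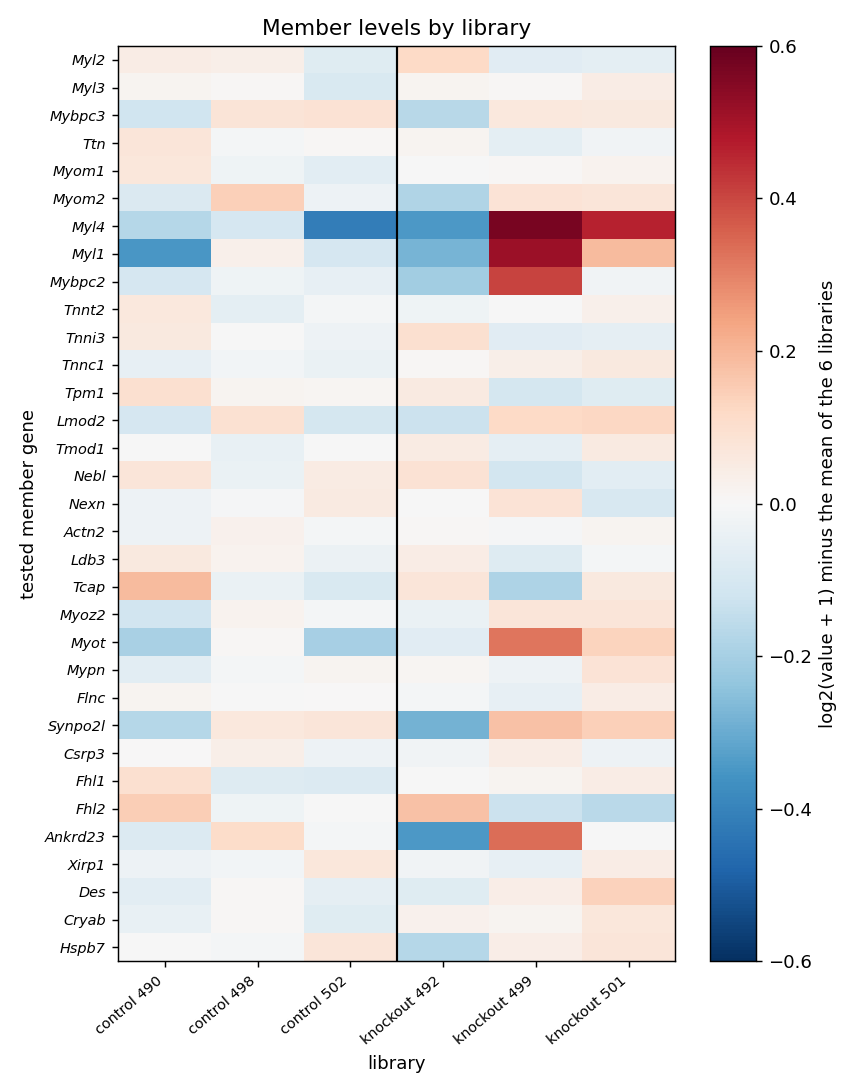
Level of the 33 tested members (y axis) in each library (x axis, controls left of the line), as log2(value + 1) minus the mean of the 6 libraries, red above and blue below. Most cells are pale, Myl4, Myl1 and Mybpc2 are darkest red in knockout 499, and control 490 and knockout 492 share blue cells in Mybpc3, Myom2 and Synpo2l.

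Control 490 and knockout 492, from different groups, often took the 2 lowest or the 2 highest ranks together. This pattern was seen in these data and is not a group of the study. It concerns rank only, and in Ttn knockout 492 (1347979) lay nearer to control 502 (1338333) than to control 490 (1399976). On the principal components of all tested features the 2 libraries lay apart, at -30.1 and -5.36 on the first and -0.19 and -25.5 on the second. They were the 2 lowest libraries in 8 members (24.2%), against 9.73% of all tested features. These were Mybpc3, Myom2, Myl1, Mybpc2, Myoz2, Synpo2l, Ankrd23 and Des. The same libraries were the 2 highest in another 8 (24.2%), against 9% of all tested features. These were Myl2, Ttn, Tnni3, Tpm1, Nebl, Ldb3, Tcap and Fhl2. The pair was chosen after values of these data, members included, were seen. A share above that of all features is therefore in part set by the choice and tests nothing. Set beside the promoter windows, a comparison made after the pattern was seen, the 16 held 14 of the 27 tested members with any window. They held all 5 members with a MEF2 site, Mybpc3, Myoz2 and Synpo2l on the low side and Ttn and Fhl2 on the high side, but 3 of 6 with a CArG box, 6 of 13 with an M-CAT element, 3 of 5 with TATAAA and 13 of 23 with an E-box. Among all tested genes with a window 19.3% followed the pattern. The share was 26.9% among those with a MEF2 site and, taken separately, 26.9% among those with a CArG box. The counts of members by motif are bound to the same choice of pair and take low and high ranks together. Several motifs were compared on few members, and no test was made.

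Synpo2l showed it most plainly, with 2532 and 2344 counts in control 490 and knockout 492 and 2976, 2999, 3219 and 3150 in control 498 and 502 and knockout 499 and 501. Fhl2 showed the reverse, at 16199 and 16518 against 13064 to 14628. Pdk4, a kinase of fuel choice that is no member and was named after its values were seen, held 5611 in control 490, 3364 in knockout 492 and 4623 in knockout 501, and between 1338 and 2038 in the other libraries, so it did not follow the same pair. With both control 490 and knockout 492 left out, an alternative chosen after seeing the data, limma called 0 members, and the lowest adjusted p was 0.25 for Myot. The groups did not overlap in 20 of 33 members (60.6%), against 34.9% of all tested features. The libraries left out were chosen from these values, so the counts of this fit are in part set by the choice. At an unadjusted limma p under 0.05 4 members were then higher, against 2.86% of all features, and 2 lower, against 2.8%. Without knockout 492 alone the groups did not overlap in 15 members, against 21.4% of all tested features. In that fit 5 members were higher at an unadjusted limma p under 0.05, against 2.29% of all features, and 3 were lower, against 2.66%.

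**Figure D5:**
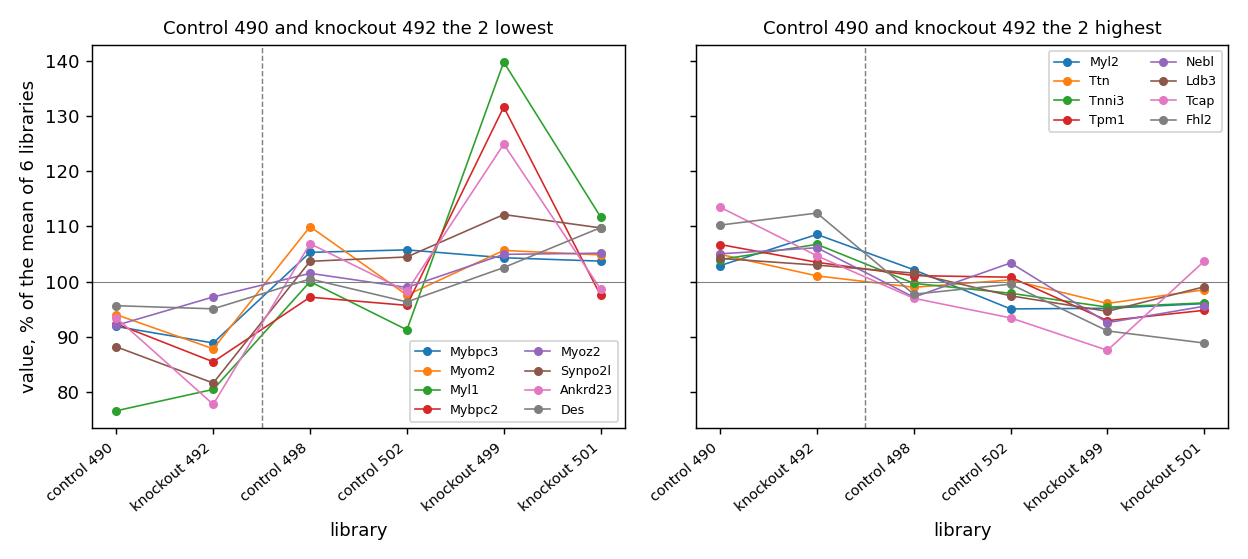
Value as a percentage of the mean of 6 libraries (y axis) by library (x axis) for the 8 members in which control 490 and knockout 492 were the 2 lowest (left) and the 8 in which they were the 2 highest (right); lines only join the points of 1 gene, and the dashed line sets these libraries apart. In both libraries Fhl2 lies above its mean and Synpo2l below it.

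As a whole the 35 members took 12.7 ± 0.12% of the counts outside mitochondrial DNA in the controls against 12.7 ± 0.16% in the knockout-labelled libraries (SD over n = 3 each). Without Ttn the share was 2.76, 2.84 and 2.79% in control and 2.81, 2.86 and 2.86% in knockout-labelled libraries, which overlap. Over all counts, mitochondrial DNA included, the members took 3.93, 3.78 and 3.87% in the controls, against 3.66, 3.53 and 3.59% in the knockout-labelled libraries. These do not overlap, and the share of mitochondrial DNA, which is in the denominator, differed between the groups as well.

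Other genes of the sarcomere and its upkeep were read from 3 further lists, and limma called 0 of them, against 0.0219% of all features. Of 27 tested sarcomere, Z-disc and M-band genes outside the members, 1 was higher and 1 lower at an unadjusted limma p under 0.05. Over all features 1.72% were higher and 1.98% lower at that threshold. Of the log2 fold changes of the 27 genes 10 lay above 0 and 17 below, with a median of -0.038. The summed counts of the 28 measured genes did not overlap, at 173819 to 177435 in the controls and 166267 to 168911 in the knockout-labelled libraries. Cmya5 held the most counts of them, and with its counts taken out the summed ranges overlap. The difference of the sums was not tested. In the lists for assembly and turnover and for transcription and splicing factors the summed ranges overlapped. Cmya5, myospryn, a large protein of the costamere, held 43596, 41770 and 39995 counts across the controls, against 37890, 35973 and 35410 across the knockout-labelled hearts, without overlap. Its log2 fold change was -0.20 with an interval from -0.30 to -0.094 (limma adjusted p = 0.421, unadjusted 0.00112). Under equal totals over all features it was -0.27 and passed the test (limma adjusted p = 0.0285). In that scaling 7.56% of all features were lower and 0.647% higher at an unadjusted limma p under 0.05. Neb, nebulin, held 308, 211 and 201 counts across the controls, against 315, 497 and 285 across the knockout-labelled hearts, with the highest value in knockout 499, and a log2 fold change of 0.59 (limma adjusted p = 1.00, unadjusted 0.00791). Without knockout 499 it was 0.35 (limma adjusted p = 1.00, unadjusted 0.0549). Myl1, Mybpc2 and the summed fast skeletal markers were also highest in that library. However, Casq1 and Ryr1, which made up most of that sum, were highest in knockout 501 and control 498. The part of skeletal muscle RNA was not tested. Xirp2 stood at -0.092.

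Of 18 genes for assembly, chaperones and turnover, 1 was higher and 0 were lower at an unadjusted limma p under 0.05. The shares over all features were 1.72% and 1.98%. Fbxo32, the ubiquitin ligase atrogin-1, held 4030, 4262 and 4244 counts across the controls, against 4478, 4779 and 4966 across the knockout-labelled hearts, without overlap (log2 difference 0.18) (limma adjusted p = 0.845, unadjusted 0.00329). Klhl41 stood at -0.12 and the chaperone cofactor Bag3 at -0.094. Of 17 transcription and splicing factors 0 passed the unadjusted threshold in either direction, with Celf1 at -0.11, Rbfox1 at -0.11 and Srf, the factor that binds the CArG box, at -0.075. Srf held 761, 764 and 762 counts across the controls, against 765, 712 and 696 across the knockout-labelled hearts.

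Among 5 ventricular markers, Hey2, a repressor of atrial genes, held 108, 112 and 108 counts across the controls, against 80.5, 77.6 and 85.7 across the knockout-labelled hearts, without overlap (log2 difference -0.42) (limma adjusted p = 1.00, unadjusted 0.00722). The other 4 had unadjusted limma p-values above 0.05, with Kcnip2 at 0.11 and Irx3 at -0.13. limma called 0 markers of smooth muscle (of 7), endothelium (7), fibroblasts (7), macrophages (6), blood (5) or fat (1). In these lists 1 gene had an unadjusted limma p under 0.05, against 1.72% of all features higher and 1.98% lower. It was the macrophage receptor Adgre1, at 0.35 on the log2 scale. The summed ranges of the 2 groups overlapped in each of these lists, for example 11146 to 12447 against 11444 to 12196 counts for endothelium and 8184 to 8298 against 8028 to 8891 for fibroblasts.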

How the data were processed

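The authors deposited normalised counts, a signal per gene and library, for which the submitters' processing notes list DESeq2 1.22.2, R 3.5.2, featureCounts, Bowtie2 2.3.4.1 and bedtools, and the builds mm10 and GRCm38, without roles. Their deposited DESeq2 table gives log2 fold changes, a test score, p-values and adjusted p-values, and a mean signal, used as the authors gave them. Members were found by symbol, and 53824 of 54715 Ensembl features had one. Reads were recovered from the step between low values, and 100% of nonzero values came out whole within 0.01. No library pair of a group agreed within counting noise (chi-square per degree of freedom 3.52 to 15.0).

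Values were tested as log2(value + 1) in 18250 features, those averaging 10 or more, by limma 3.58.1 with a trended prior, 2-sided, genotype as the only term, adjusted at 0.05 over all features, and the fit was tested on simulated data. Fold changes of low genes are understated on this scale. edgeR 4.0.16 and DESeq2 1.42.0 ran on recovered reads. Other alternatives covered pseudocount, filter, scaling, moderation and each library left out. Members and lists were chosen with earlier results of these data known. Values per library are printed for members with an unadjusted p under 0.05, with groups that do not overlap, highest in their role or in a ratio. They are printed also for others named after their values were seen. Of each further list at most 3 genes of lowest p are named. Outside this rule, Sln, Bmp10 and Myh4, which were not tested, and Hspb2, for its overlap, are named too. Exon lengths and protein sequences were not used here, so levels of different genes are not ranked. The libraries of RNA ends from mitochondria were not analysed here. The 95% intervals are from limma and reflect the spread between libraries. The floor of 3 reads for a count of 0 covers counting error only.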

Additional observations from a re-analysis of the deposited data

How the results depend on the processing

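No member was called under any of the alternatives run, where the adjusted p of members was at least 0.25. The count of all called features was 4 and became 12 with no filter, 12 with robust moderation, 37 under equal totals over all features, 33 in DESeq2, 33 in the authors' deposited table, 0 in limma without a trend (unadjusted p under 0.05: 835 features), 1 to 8 with 1 library left out and 13 without both control 490 and knockout 492. The members' median was -0.069 under equal totals over all features, where the median of all features was also -0.069, 0.028 under equal totals without mtDNA features, 0.0081 to 0.038 with 1 library left out and 0.023 without both. Members without overlap numbered 7 under equal totals over all features (15.1% of all features) and 2 to 15 with 1 library left out (17.6 to 21.4%). They numbered 20 without both (34.9% of all features), a count in part set by the choice of that pair. The share of counts differed by -0.048 points outside mitochondrial DNA, and by -0.27 points, without overlap, over all counts. The Myl7 over Myl2 difference ran from -0.024 to 1.13 with 1 library left out, resting on knockout 501.

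Of 284 values of 15 named members under 19 alternatives, 24 changed sign, all near 0 and uncalled. Under equal totals over all features these were Myl3 (-0.024), Tnnt2 (-0.069) and Tnnc1 (-0.0019), without mtDNA features Myl2 (0.024) and Tnni3 (0.010), and without both libraries Tcap (0.0016) and Hspb7 (0.027). With 1 library left out the ranges were -0.064 to 0.030 for Myl2, -0.069 to 0.012 for Tnni3, -0.093 to 0.047 for Tcap, -0.096 to 0.046 for Mybpc3, -0.027 to 0.034 for Tnnt2, -0.084 to 0.038 for Hspb7 and -0.058 to 0.25 for Mybpc2. The cause was not tested. No paired analysis was possible because the numbers in the table columns are not the replicate numbers of the labels and pair no samples. The lowest tested member, Myl4, with 8 to 18 reads a library, had the widest interval, from -0.37 to 1.29.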
